A study of Mus musculus with 9 samples.

Results

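Immunoglobulin variable (V) segments encode most of the antigen-binding part of an antibody. They were taken as every entry of the count table with the gene biotype IG_V_gene, which gave 175 of 44806 entries. By name, 75 belonged to the heavy chain locus (Ighv), 76 to the kappa light chain locus (Igkv) and 2 to the lambda light chain locus (Iglv). The other 22 carried unplaced names, 14 of them on chromosome 12, 7 on chromosome 6 and 1 on chromosome 16, the chromosomes of the heavy, kappa and lambda loci.

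The RNA came from tumours grown in mice from the MB49 line of mouse bladder cancer cells, which the labels describe in all 9 libraries as overexpressing HER2, a receptor tyrosine kinase. The mice were given PBS or 1 of 2 T cell engagers made of lipid-tagged antibody fragments, Lipo-BiTE or Lipo-TriTE, with 3 libraries for each group. The labels give no targets for either agent, no strain, age, dose or time, and no group that received the carrier without an engager. Labels and protocol describe frozen whole tumours, whereas the design text names sorted CD3+ T cells. Krt8, an epithelial keratin, stood at 158 to 478 CPM (counts scaled to library size with TMM factors) over the 9 libraries, and Cd3e of the CD3 complex of T cells at 2.82 to 105.5 CPM. Libraries held 13152783 to 20273548 counts. The labels do not say whether replicate libraries stem from different mice, so p-values measure only the spread between these samples, which may be technical.

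V segments are silent building blocks in most cells. A developing B cell joins a V segment to a J segment, with a D segment between them in the heavy chain, and the joined exon is then transcribed with the constant gene behind it. Each B cell clone therefore carries its own choice of V segments, B cells that become plasma cells transcribe them at very high levels, and T cells do the same with V segments of the T cell receptor genes. In mice most antibodies carry a kappa light chain. Segments are grouped into families by sequence, and the family is the first number of the name.

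Coding sequences were read from GENCODE M21 on the GRCm38 build, in which 154 of the 175 names had a match. Capitals run from the conserved cysteine codon near the 3′ end to the last base of the segment, the germline start of CDR3, the binding loop where joining takes place. The last 300 bases of 2 segments are shown because these had the largest mean share of heavy and kappa V reads in Lipo-TriTE tumours. Ighv3-6 lies at chr12:114288152-114288582 on the minus strand and Igkv3-4 at chr6:70671788-70672377 on the plus strand.
Ighv3-6: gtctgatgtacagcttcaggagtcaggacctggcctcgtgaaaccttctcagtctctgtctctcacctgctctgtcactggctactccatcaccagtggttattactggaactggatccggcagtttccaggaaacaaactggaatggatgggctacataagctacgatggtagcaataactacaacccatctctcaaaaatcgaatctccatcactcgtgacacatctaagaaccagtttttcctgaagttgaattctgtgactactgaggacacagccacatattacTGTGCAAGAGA
Igkv3-4: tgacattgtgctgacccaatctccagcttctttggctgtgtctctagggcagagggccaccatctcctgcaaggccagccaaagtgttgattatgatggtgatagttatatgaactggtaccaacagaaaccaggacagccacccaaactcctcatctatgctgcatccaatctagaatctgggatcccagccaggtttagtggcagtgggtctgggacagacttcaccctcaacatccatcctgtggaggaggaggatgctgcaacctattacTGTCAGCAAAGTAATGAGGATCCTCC

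The last 120 bases of 4 other segments are shown because each led its locus in at least 1 library. Ighv11-2 (chr12:114048241-114048812, minus strand) and Igkv14-126 (chr6:67896172-67896642, plus strand) led in PBS and Lipo-BiTE libraries, and are known together from B-1a cells that bind phosphatidylcholine. Ighv1-12 (chr12:114615850-114616318, minus strand) led in PBS 1 and Igkv3-2 (chr6:70698449-70699067, plus strand) in Lipo-TriTE 1.
Ighv11-2: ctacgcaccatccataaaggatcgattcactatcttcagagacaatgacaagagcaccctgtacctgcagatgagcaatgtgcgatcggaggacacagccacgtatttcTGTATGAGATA
Igkv14-126: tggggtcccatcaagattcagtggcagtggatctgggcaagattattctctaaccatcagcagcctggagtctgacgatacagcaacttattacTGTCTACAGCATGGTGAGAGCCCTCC
Ighv1-12: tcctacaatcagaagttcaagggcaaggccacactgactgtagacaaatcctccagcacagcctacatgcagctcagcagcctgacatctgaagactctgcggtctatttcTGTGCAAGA
Igkv3-2: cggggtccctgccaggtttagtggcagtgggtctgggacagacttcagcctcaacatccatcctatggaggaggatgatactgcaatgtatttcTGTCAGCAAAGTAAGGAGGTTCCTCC

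The cysteine codon was located in 72 Ighv and 76 Igkv segments. Of the 72, 34 continued from it as TGTGCAAGA, searched only at that position on the coding strand, and they took 49.2%, 58.9% and 56.7% of the reads of the located Ighv segments in Lipo-TriTE 1, 2 and 3. Ighv3-6 and Ighv1-12 are among them and Ighv11-2 is not. In kappa, 37 of 76 segments ended in CCTCC, and these took 72.6%, 69.5% and 75.5% of the reads of the located Igkv segments in the same libraries. Igkv3-4, Igkv3-2 and Igkv14-126 all end this way.

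V segment reads were rare in PBS and Lipo-BiTE tumours and common in every Lipo-TriTE tumour. All 175 entries together had 56, 59 and 53 counts in PBS 1, 2 and 3. Lipo-BiTE 1, 2 and 3 had 86, 88 and 42. Lipo-TriTE 1, 2 and 3 had 16132, 3151 and 5534. The Lipo-TriTE libraries were thus all above the other 6, whereas Lipo-BiTE 3 lay below every PBS library. The mean summed level was 3.59 ± 0.512 CPM for PBS, 5.48 ± 2.10 CPM for Lipo-BiTE and 446 ± 301 CPM for Lipo-TriTE (SD, n = 3 each). Its mean was 124-fold higher in Lipo-TriTE than in PBS and 81.4-fold higher than in Lipo-BiTE. The lowest Lipo-TriTE library exceeded the highest of the other 6 by 29.4-fold. Lipo-TriTE 1 stood 3.92-fold above Lipo-TriTE 2, and without it the group mean was 278 CPM. No p is given for sums over the segments. In bulk tissue, more cells that transcribe these genes and more RNA per such cell cannot be told apart.

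Heavy, kappa and lambda segments shared this pattern. Ighv counts were 21, 20 and 22 in PBS, 39, 35 and 15 in Lipo-BiTE and 8065, 1372 and 2407 in Lipo-TriTE. Igkv counts were 28, 32 and 31, then 47, 47 and 26, then 7626, 1648 and 2936 in the same order. Mean CPM was 157-fold higher in Lipo-TriTE than in PBS for Ighv and 114-fold for Igkv. In lambda only Iglv3 had counts, 7, 1 and 0 in PBS, 0, 6 and 1 in Lipo-BiTE and 438, 131 and 191 in Lipo-TriTE. The lambda segment pool measured here is therefore a single gene, and the second Iglv entry had no count in any library. Of the entries with other names, 2 had counts, 6 in PBS 2 for the one and 3 in Lipo-TriTE 1 for the other.

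**Figure D1:**
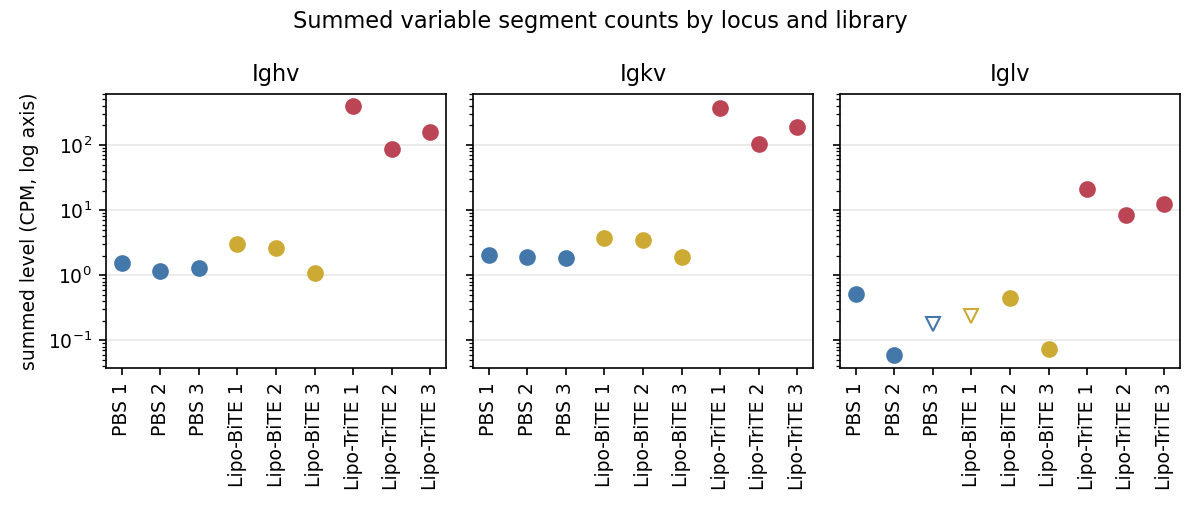
Summed V segment level in CPM on a log axis for each of the 9 libraries, by locus; filled points are libraries, and open triangles mark libraries with 0 counts at the level of 3 counts. The Lipo-TriTE libraries lie above all others in each locus, with Lipo-TriTE 1 highest.

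Kappa segments supplied most light chain V reads in every library. Their share was 94.6%, 92.6% and 93.9% in Lipo-TriTE 1, 2 and 3, with exact 95% binomial intervals of 94.1 to 95.1%, 91.3 to 93.8% and 93 to 94.7%. In PBS the share was 80%, 97% and 100% and in Lipo-BiTE 100%, 88.7% and 96.3%, each from 27 to 53 light chain reads, so that the interval of PBS 1 ran from 63.1 to 91.6%. These intervals cover counting error only, since reads copied by PCR are not independent molecules. The same share taken from the constant genes was 93.6%, 92.9% and 92.3% in Lipo-TriTE, close to that of the V segments. In the V segment share Iglv3 alone stands for lambda, so reads of any lambda segment missing from the entries are not in it. Ighv reads per Igkv read ran from 0.577 to 0.83 in PBS and Lipo-BiTE and were 1.06, 0.833 and 0.82 in Lipo-TriTE, with Lipo-BiTE 1, at 0.83, between Lipo-TriTE 2 and 3.

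Most of the segments that were found were found in Lipo-TriTE. Of the 175 entries, 57 had no count in any library and 118 had at least 1, among them 56 Ighv, 59 Igkv, 1 Iglv and 2 with other names. A count in PBS or Lipo-BiTE was seen for 63, and 55 had counts in Lipo-TriTE only. No segment had a count in all 9 libraries, and 72 had one in all 3 Lipo-TriTE libraries. Only 8 had counts in PBS or Lipo-BiTE and none in Lipo-TriTE, among them Ighv6-5 with 4 reads in Lipo-BiTE 2.

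With at least 3 counts as the mark of detection, 6, 8 and 7 segments were detected in PBS, 10, 15 and 5 in Lipo-BiTE and 92, 72 and 82 in Lipo-TriTE. Numbers of segments follow the numbers of reads, so they were also computed for equal numbers of reads by exact expectation. For 42 V reads, the sum in Lipo-BiTE 3, the expected number with a read was 24.7, 24.1 and 23.1 in Lipo-TriTE. It was 24.6, 19.3 and 16 in Lipo-BiTE and 8.43, 12.9 and 16.4 in PBS. At matched reads Lipo-BiTE 1 fell within the Lipo-TriTE range, the 3 PBS libraries lay below it, and most of the raw difference between groups was gone. For 3151 reads, the sum in Lipo-TriTE 2, the Lipo-TriTE libraries gave 88.3, 83 and 87.2 segments.

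**Figure D2:**
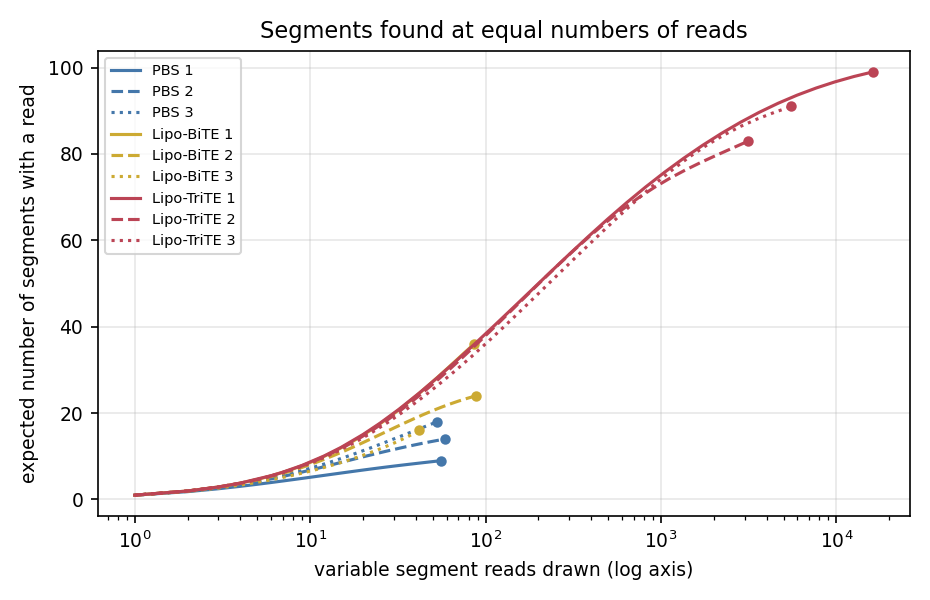
Expected number of V segments with a read, by the number of V reads drawn (log axis), 1 line per library with its end point at the full sum. Lines of the 3 Lipo-TriTE libraries run together, Lipo-BiTE 1 follows them to its end at 86 reads, and the PBS lines lie below them from about 10 reads on.

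Evenness describes how equally the reads are spread over the segments found, and reaches 1 when all have the same number. Pielou evenness was 0.812, 0.827 and 0.795 in Lipo-TriTE, 0.923, 0.934 and 0.836 in Lipo-BiTE and 0.831, 0.903 and 0.888 in PBS. Lipo-TriTE lay below the other 6 libraries in this measure, which in those rested on 42 to 88 reads. This order depends on how evenness is taken. With 18 unnamed loci added whose deposited protein match is a variable region, Lipo-TriTE 1 and 2 (0.83 and 0.84) were above PBS 1 (0.817), and without each library's leading segment Lipo-TriTE 2 (0.849) was above PBS 1 (0.837). Taken over all 175 entries, the mean was 0.437 for PBS, 0.554 for Lipo-BiTE and 0.708 for Lipo-TriTE, with Lipo-TriTE highest. The inverse Simpson number, the count of equally used segments that would give the same chance of drawing a pair alike, was 29.2, 24.8 and 22.9 in Lipo-TriTE. It was 26.9, 20.1 and 7.97 in Lipo-BiTE and 5.38, 10.6 and 11.8 in PBS. Lipo-TriTE thus lay above PBS in effective number, and Lipo-BiTE 1 and 2 lay in or near its range. Within Lipo-TriTE the heavy chain differed most: the effective number of Ighv segments was 16.4 in Lipo-TriTE 1 against 8.9 and 8.22 in 2 and 3, while that of Igkv was 12.2, 15.8 and 14.4.

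Ighv3-6 was the most abundant heavy chain segment in all 3 Lipo-TriTE libraries. Its counts were 1161, 387 and 672, which was 14.4%, 28.2% and 27.9% of the Ighv reads. In PBS it had no read, and in Lipo-BiTE 2, 2 and 0. The next by mean share were Ighv8-12 with 1.29%, 10.3% and 14.3% and Ighv8-8 with 3.41%, 6.12% and 8.14%. Both lay lowest in Lipo-TriTE 1, as did Ighv1-9 with 2.18%, 5.98% and 8.02%, whereas Ighv9-3 was highest there with 8.36%, 5.17% and 2.99%. In families, Ighv3 held 26% ± 7.77, Ighv1 20.8% ± 2.99 and Ighv8 15.8% ± 7.48 of Ighv reads in Lipo-TriTE (SD, n = 3 each). Ighv1, the largest family with 25 entries, had counts for 14 of them. These shares and ranks cover the named entries only. Absent from these are 64 of the 218 IG_V_gene names of GENCODE M21, and 18 unnamed loci with a variable region match were left out. An unnamed heavy chain locus on a scaffold had 47, 176 and 350 counts in Lipo-TriTE 1, 2 and 3, against 344 of Ighv8-12 in Lipo-TriTE 3. The order of families with such loci included was not tested.

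In kappa each Lipo-TriTE library had another leading segment, Igkv3-2 in Lipo-TriTE 1, Igkv8-27 in 2 and Igkv6-32 in 3. Igkv3-2 had 1255, 86 and 89 counts, or 16.5%, 5.22% and 3.03% of Igkv reads. Igkv8-27 had 111, 195 and 290 (1.46%, 11.8% and 9.88%) and Igkv6-32 had 81, 170 and 422 (1.06%, 10.3% and 14.4%). These last 2 were low in Lipo-TriTE 1 in share and in counts, although that library held the most V reads. Igkv3-4 was the steadiest of the leading segments, with 684, 186 and 281 counts and shares of 8.97%, 11.3% and 9.57%, and Igkv10-96 followed with 9.47%, 6.43% and 8.07%. Per kilobase of gene length, which allows segments to be compared with each other, Ighv3-6 reached a mean of 118 CPM, Igkv3-2 77.9, Igkv3-4 58.4 and Igkv10-96 52.9 in Lipo-TriTE. The mean of Igkv3-2 rests on Lipo-TriTE 1, with 60.8, 5.44 and 5.75 CPM in the 3 libraries. The Igkv8 family held 16.2% ± 1.21 of Igkv reads, although its members Igkv8-27 and Igkv8-30 (13.6%, 0.91% and 1.33%) went opposite ways, while Igkv3 had 21.1% ± 10 and Igkv6 15.8% ± 10.1 (SD, n = 3 each).

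**Figure D3:**
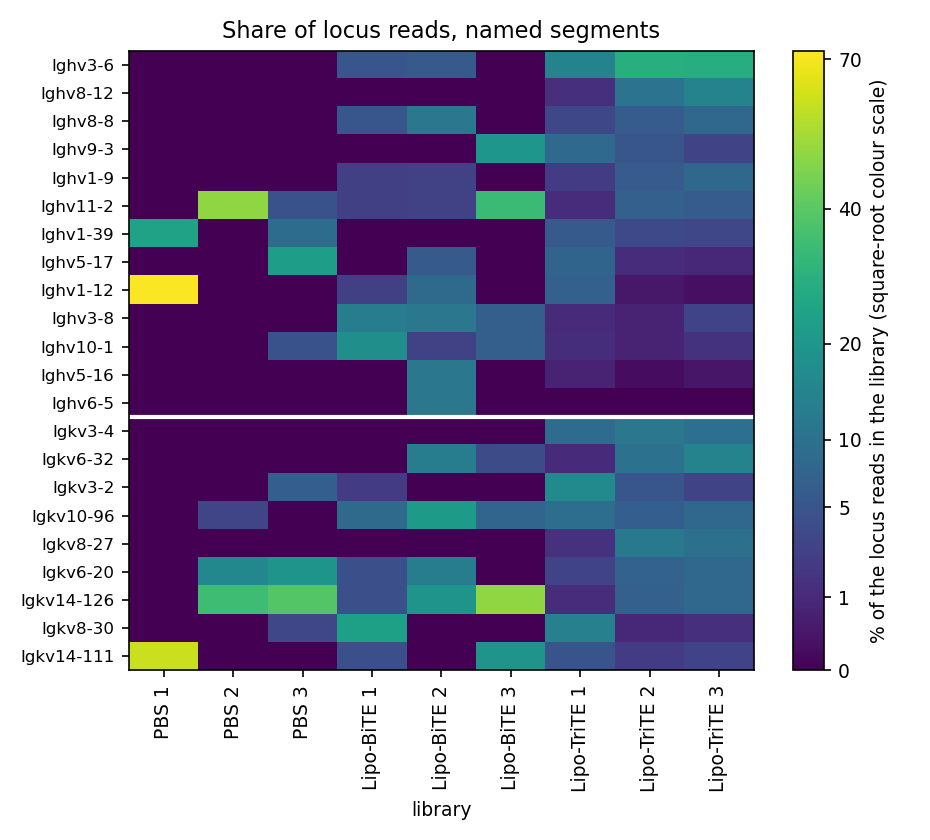
Share of the Ighv or Igkv reads of a library (square-root colour scale) held by each named segment, with Ighv above the white line and Igkv under it, by library. Bright single cells in PBS 1 are Ighv1-12 (71.4%) and Igkv14-111 (60.7%), and Ighv3-6 is the brightest Ighv row in Lipo-TriTE.

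Segment use was alike in Lipo-TriTE 2 and 3 and apart in Lipo-TriTE 1. The overlap of shares, which is 1 for identical use and 0 for none in common, was 0.844 for Ighv and 0.839 for Igkv between Lipo-TriTE 2 and 3. Between Lipo-TriTE 1 and these libraries it was 0.481 and 0.461 for Ighv and 0.478 to 0.498 for Igkv. Pairs within PBS ran from 0 to 0.182 for Ighv and from 0.0312 to 0.532 for Igkv, and pairs within Lipo-BiTE from 0.124 to 0.399 and from 0.222 to 0.307. Pairs of Lipo-BiTE with Lipo-TriTE ran from 0.152 to 0.398 for Ighv and from 0.193 to 0.505 for Igkv. The highest, Lipo-BiTE 1 with Lipo-TriTE 1 in Igkv, lay above Lipo-TriTE 1 with Lipo-TriTE 2 or 3. Pairs of PBS with Lipo-TriTE ran from 0.0239 to 0.225 and from 0.0688 to 0.271. The 6 PBS and Lipo-BiTE libraries had 15 to 47 reads a locus, and the part of read number in these values was not tested.

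Single segments differed in both directions. Lipo-TriTE 1 held most V reads of the group, 781 CPM against 199 and 358, so that over 50% of a segment's reads in it is common. Among 72 segments with at least 30 counts over the group, 43 had over 50% of their summed CPM in Lipo-TriTE 1, 3 in Lipo-TriTE 2 and 10 in Lipo-TriTE 3. Over 80% was found for 22 in Lipo-TriTE 1 and for 0 in Lipo-TriTE 2 or 3. Ighv1-12 had 547, 4 and 3 counts, 119-fold more CPM in Lipo-TriTE 1 than in the mean of the others. Igkv8-30 had 1038, 15 and 39 counts (29-fold) and Ighv5-17 had 610, 16 and 22 (24.3-fold). In the other direction, Ighv1-64, chosen after its values were seen, had 3, 22 and 38 counts, and 15 of the 72 were lowest in Lipo-TriTE 1. The median ratio over the 72 was 2.66.

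**Figure D4:**
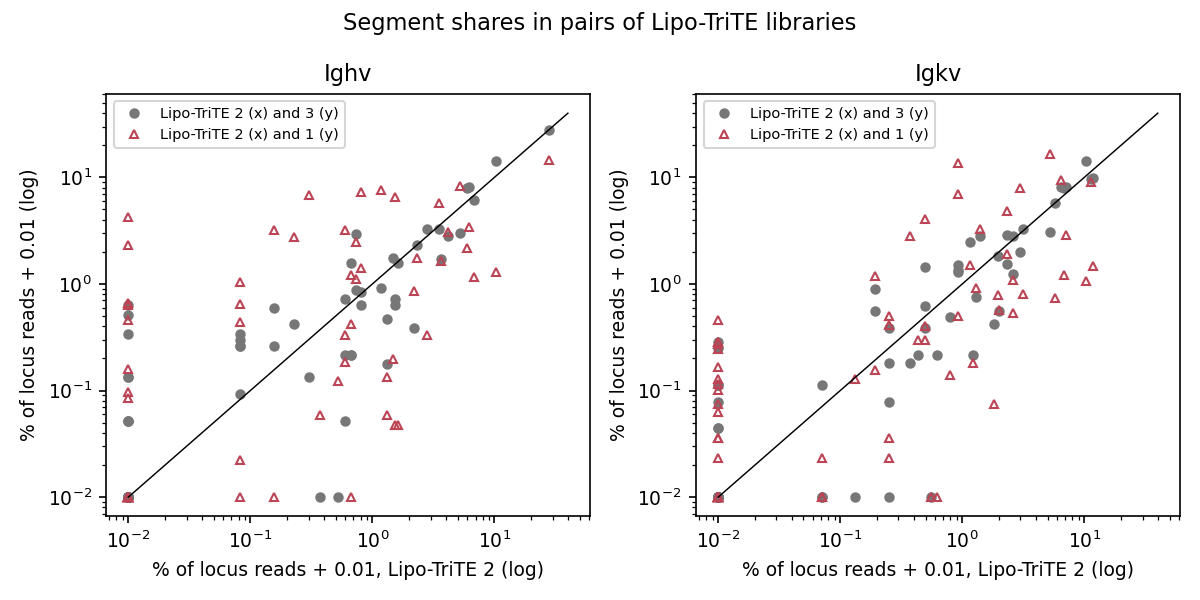
Share of locus reads plus 0.01%, on log axes, for each Ighv (left) and Igkv (right) segment in Lipo-TriTE 2 (x) against Lipo-TriTE 3 (grey points) or Lipo-TriTE 1 (red triangles), with the line of equal share. Grey points of the common segments keep near the line, and the triangles scatter to both sides of it.

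Other antibody genes also differed between these libraries, not all in 1 direction. Igkc, the kappa constant gene, was 2527, 669 and 936 CPM in Lipo-TriTE 1, 2 and 3, and Jchain, the joining chain of secreted IgM and IgA, 414, 161 and 198. Igha of IgA was lowest in Lipo-TriTE 1, with 78.4, 193 and 199 CPM, and so was Ighe of IgE with 2.91, 15.2 and 16.2 CPM. Iglc3, a lambda constant gene, was 12.8, 8.85 and 13.4 CPM. Ms4a1, which encodes the B cell surface protein CD20, was 155, 58 and 53.8 CPM. Cd3e varied less, at 105.5, 69.1 and 61.1 CPM, and Krt8 went the other way with 158, 294 and 285 CPM. Their part in the difference between these libraries was not tested.

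The leading segments of PBS and Lipo-BiTE libraries rest on 4 to 17 reads each and mostly differed between libraries. Ighv1-12 had 15 of the 21 Ighv reads of PBS 1 and Igkv14-111 had 17 of its 28 Igkv reads, and neither had a read in PBS 2 or 3. Ighv11-2 had 10 of 20 Ighv reads in PBS 2, 1 of 22 in PBS 3 and 5 of 15 in Lipo-BiTE 3. Igkv14-126 had 11 of 32 and 12 of 31 Igkv reads in PBS 2 and 3 and 13 of 26 in Lipo-BiTE 3. Both segments of the known phosphatidylcholine-binding pair thus led in PBS 2 and Lipo-BiTE 3, and bulk counts do not show whether they came from the same cells. In PBS 3, Ighv5-17 led with 5 reads. Lipo-BiTE 1 was led by Ighv10-1 with 7 reads and Igkv8-30 with 11, and Lipo-BiTE 2 by Igkv10-96 with 10, while Ighv5-16, Ighv6-5 and Ighv8-8 tied there with 4 each.

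The segments with the most PBS reads were also read in Lipo-TriTE. Ighv11-2 had 92, 94 and 146 counts there, or 1.14%, 6.85% and 6.07% of Ighv reads, and Igkv14-126 had 91, 112 and 235, or 1.19%, 6.8% and 8% of Igkv reads. Their counts were still above those of every PBS and Lipo-BiTE library. Igkv14-111 had 365, 38 and 85 counts and Igkv6-20 had 221, 117 and 239, against 0, 5 and 6 in PBS and 2, 6 and 0 in Lipo-BiTE. The table places Igkv6-20 on chromosome 4, outside the kappa locus, and 64.1% of its 50-base windows also occur in another V segment, so its reads may belong in part to others.

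Of the 175 segments, 39 had enough reads for the gene-wise test (edgeR quasi-likelihood, Benjamini-Hochberg adjusted p under 0.05 over 16596 genes). All of these but Igkv14-126 passed the filter only through their Lipo-TriTE counts and so had to differ. Their number is an account of the test, not support for a difference. The same holds for the adjusted p given below for each such segment in Lipo-TriTE against PBS or Lipo-BiTE. Several of these segments were also named for their large fold. In Lipo-TriTE against PBS, 39 were called higher and 0 lower, while 18.9% of all tested genes were called higher and 14.8% lower. The unadjusted p was under 0.05 for the same number, 39, and DESeq2 called 56 higher and 0 lower. Without a filter 62 were called. Over all 175 segments, 70 had every Lipo-TriTE library above every PBS library, against 25.9% of the tested genes. These shares are over unlike sets, since 57 of the 175 had no count in any library and tested genes passed the filter.

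Segments without a PBS read have a lower bound in place of a fold, set by 3 counts over the group. The bound covers counting error in the group without reads only, and not the spread between libraries. Ighv3-6 was at least 674-fold higher (56.2, 24.5 and 43.4 CPM in Lipo-TriTE, edgeR adjusted p = 2.99e-05), a bound that falls to 432 without PBS 2 and 434 without PBS 3 because fewer reads then stand behind the 0. Igkv3-4 was at least 349.5-fold higher (33.1, 11.8 and 18.2 CPM, edgeR adjusted p = 0.000242, 224 and 225 without PBS 2 or 3). Ighv9-3 was at least 248-fold higher (32.6, 4.49 and 4.65 CPM, edgeR adjusted p = 0.00214). Its bound rests on Lipo-TriTE 1 and is 72.1 without it, and 159 and 159.7 without PBS 2 or 3. Igkv6-32 was at least 204-fold higher (3.92, 10.7 and 27.3 CPM, edgeR adjusted p = 0.00131), or 109-fold without Lipo-TriTE 3 and 131 and 131.6 without PBS 2 or 3.

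Segments with 1 or 2 PBS reads give a ratio with an exact 95% interval that covers counting error only and not the spread between libraries. Igkv10-96 had 0, 1 and 0 counts in PBS and 722, 106 and 237 in Lipo-TriTE, a ratio of 970.3 (174 to 38360, edgeR adjusted p = 0.000138), or 519 without Lipo-TriTE 1 and 625 without PBS 3. For Igkv3-2, with 2 PBS reads, the ratio was 651 (180.0 to 5384, edgeR adjusted p = 0.00119), or 132 without Lipo-TriTE 1 and 418 without PBS 2. For Igkv8-30, with 1, it was 995 (178 to 39332, edgeR adjusted p = 0.00791), or 81.6 without Lipo-TriTE 1 and 638 without PBS 2. The call of Igkv8-30 was lost without the low-count filter (edgeR adjusted p = 0.0788).

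Segments with more PBS reads had smaller folds. Ighv11-2 was 28.3-fold higher (mean 0.216 in PBS and 6.61 CPM in Lipo-TriTE, edgeR adjusted p = 0.00208, log2 4.82, SE 0.87), with a log2 change of 7.35 when PBS 2, which held 10 of its 11 PBS reads, was left out. Igkv14-126, at a mean of 0.453 CPM in PBS and 8.89 CPM in Lipo-TriTE, was 18.6-fold higher (edgeR adjusted p = 0.00366, log2 4.22, SE 0.84), and the log2 change was 3.59 without Lipo-TriTE 3. Igkv6-20 rose 47.6-fold (log2 5.57, SE 0.78, edgeR adjusted p = 0.000506). Iglv3, the sole lambda segment with reads, rose 76.5-fold (log2 6.26, SE 0.93, edgeR adjusted p = 0.000821), with log2 changes of 8.53 without PBS 1 and 5.65 without PBS 3.

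Some calls hung on single libraries or on the method. Igkv14-111 rose 21.6-fold (log2 4.44, edgeR adjusted p = 0.0208), but the adjusted p was 0.0683 without PBS 2, 0.0667 without PBS 3 and 0.115 without Lipo-TriTE 1, and the log2 change 10.06 without PBS 1, which held all of its PBS reads. The call of Igkv14-111 was also lost with DESeq2 (adjusted p = 0.105) and in edgeR without the low-count filter (adjusted p = 0.109). Ighv5-17 rose 95.5-fold (log2 6.58, edgeR adjusted p = 0.0103). It was not called without Lipo-TriTE 1 (log2 3.49, adjusted p = 0.0967) or without the filter (edgeR adjusted p = 0.0909). Its log2 change was 10.37 without PBS 3. Ighv1-39 had 463, 48 and 79 counts against 5, 0 and 2 in PBS (64.1-fold, log2 6, edgeR adjusted p = 0.00427). Its log2 change was 7.24 without PBS 1, 5.41 without PBS 2 and 4.67 without Lipo-TriTE 1. Ighv1-12, the leading PBS 1 segment, did not pass the filter, with 15, 0 and 0 counts in PBS and 547, 4 and 3 in Lipo-TriTE, and its groups overlap.

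Lipo-TriTE against Lipo-BiTE gave nearly the same account. Of the 39 tested segments, 38 were called higher and 0 lower, while 4.88% of all tested genes were called higher and 5.21% lower, and DESeq2 called 45 higher and 0 lower. All 39 had an unadjusted p under 0.05. The exception was Ighv5-9-1, named here after its values were seen, with 592, 11 and 20 counts against none in the other 6 libraries (edgeR adjusted p = 0.0662). The number of calls fell to 21 without Lipo-BiTE 2. In 67 of the 175 segments every Lipo-TriTE library lay above every Lipo-BiTE library, against 16% of tested genes, again over unlike sets. The comparisons with PBS and with Lipo-BiTE share the Lipo-TriTE libraries.

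Against Lipo-BiTE, segments without a read there again have lower bounds. Igkv3-4 was at least 294-fold higher (edgeR adjusted p = 0.00207), or at least 198-fold without Lipo-TriTE 1, and 195 and 192 without Lipo-BiTE 2 or 3. Igkv8-27 and Ighv8-12 were at least 152-fold and 151-fold higher (edgeR adjusted p = 0.00406 and 0.00786). Without Lipo-TriTE 3 the bound of Ighv8-12 was 89.5, and without Lipo-BiTE 2 or 3 the bounds were 101.2 and 99.5 for Igkv8-27 and 100.2 and 98.5 for Ighv8-12. Ighv1-39 was at least 151-fold higher (edgeR adjusted p = 0.0104), with bounds of 53.8 without Lipo-TriTE 1 and 100.2 and 98.5 without Lipo-BiTE 2 or 3. Igkv3-2, with 1 Lipo-BiTE read, had a ratio of 1095 (exact 95% interval 196 to 43287, edgeR adjusted p = 0.00717), or 222 without Lipo-TriTE 1, 729 without Lipo-BiTE 2 and 716 without Lipo-BiTE 3. Ighv3-6, with 4 Lipo-BiTE reads, was 381-fold higher (log2 8.57, SE 0.59, edgeR adjusted p = 0.000218). Igkv14-126 was 14.7-fold higher (log2 3.88, SE 0.83, edgeR adjusted p = 0.0184), a call that was lost without Lipo-BiTE 2 (adjusted p = 0.0797) and without Lipo-TriTE 3 (log2 3.24, adjusted p = 0.0706).

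Between Lipo-BiTE and PBS no V segment passed the same test. None of the 39 tested segments was called higher or lower by edgeR, while 13.8% of all tested genes were called higher and 3.22% lower. An unadjusted p under 0.05 was found for 3, and DESeq2 called 2 higher, Igkv10-96 and Ighv3-8. Igkv10-96 had 4, 10 and 2 counts in Lipo-BiTE and 0, 1 and 0 in PBS, a ratio of 19 with an exact 95% interval of 2.96 to 798 and an edgeR adjusted p of 0.0915. The ratio was 10.7 without Lipo-BiTE 2 and 12.3 without PBS 3. Ighv3-8 had 5, 4 and 1 counts in Lipo-BiTE against none in PBS, at least 3.97-fold higher (2.54 without PBS 2 and 2.55 without PBS 3), and was too low for the edgeR test. With Ighv10-1 (7, 1 and 1 counts against 0, 0 and 1) these were the 3 of 175 segments whose Lipo-BiTE libraries all lay above PBS. No segment had them all below. Among tested genes the shares were 22.7% and 19.4%. These are over unlike sets, since only 63 of the 175 had a count in PBS or Lipo-BiTE and could be separated. At these read numbers few differences between Lipo-BiTE and PBS were detectable.

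Segments from the whole length of each locus were found. Ighv3-6 lies 1078 kb from the heavy chain J segments in the table's C57BL/6NJ gene models and Ighv8-12 lies 2662 kb from them. When the Ighv entries were split by order into 3 groups of 25, the group nearest to J held 37.6%, 27.5% and 19.9% of placed Ighv reads in Lipo-TriTE 1, 2 and 3, and the farthest 30%, 28.9% and 33.7%. The nearest 25 of the placed kappa segments held 53.6%, 49.6% and 48.4% of reads, with Igkv3-2 at 26.1 kb and Igkv3-4 at 73.2 kb. In PBS it held 0%, 22.2% and 16%, and the farthest 24 held 78.6%, 51.9% and 68%, where Igkv14-111 and Igkv14-126 lie. Lipo-TriTE libraries were all below PBS 1 to 3 in the share of the farthest kappa group, at 31.7%, 26.2% and 32.5%. Lipo-BiTE 1, 2 and 3 held 42.2%, 61% and 80.8% there. PBS 1 to 3 had 28, 32 and 31 Igkv reads. Of these, 17 in PBS 1 were of Igkv14-111, and 11 and 12 in PBS 2 and 3 of Igkv14-126. Reads on segments placed outside the locus were left out here, among them 5 and 6 of Igkv6-20 in PBS 2 and 3.

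**Figure D5:**
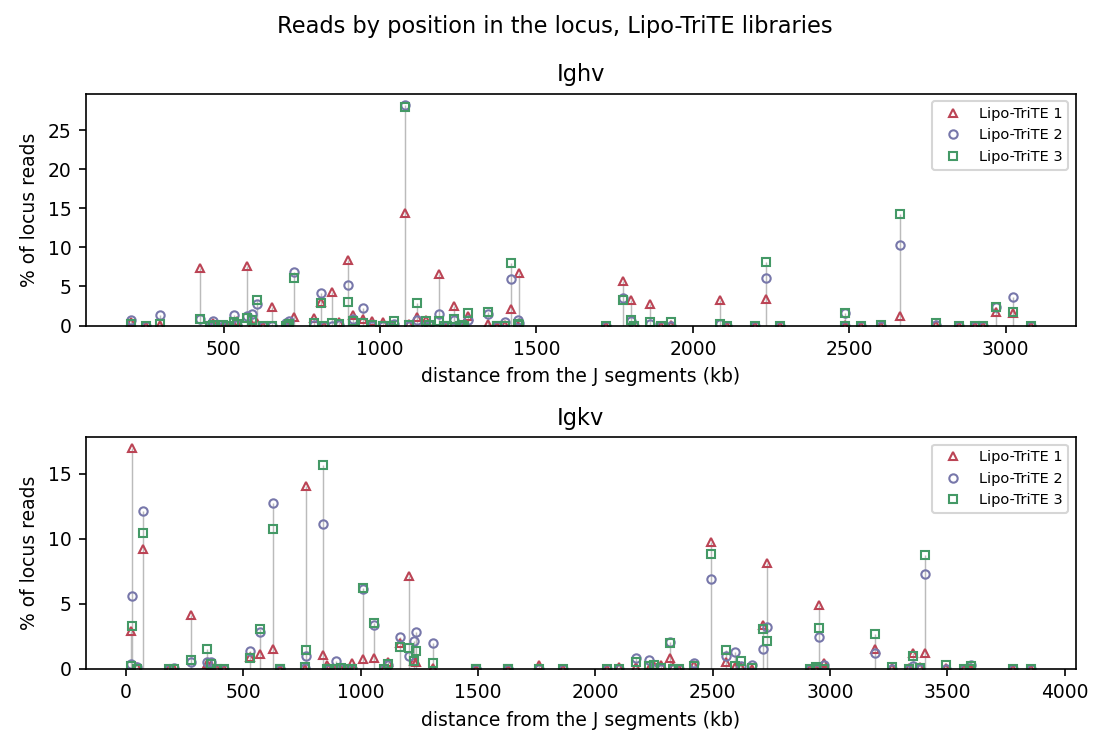
Share of placed Ighv (top) and Igkv (bottom) reads held by each segment in the 3 Lipo-TriTE libraries, by distance from the J segments in kb. Ighv3-6 is the tallest heavy chain segment in all 3 libraries, and the tall kappa segments are led by different libraries.

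Ratios of V reads to reads of the constant genes, which follow them in antibody transcripts, differed far less between groups than the V reads did. Ighv counts per 100 counts of the heavy chain constant genes were 3.65, 4.71 and 5.03 in PBS, 3.75, 3.54 and 1.79 in Lipo-BiTE and 5.11, 4 and 6.84 in Lipo-TriTE. Igkv counts per 100 Igkc counts were 14.7, 29.1 and 32.6, then 24.5, 27.6 and 14.9, then 14.6, 15.6 and 20.3. In the heavy chain ratio PBS overlapped both other groups, but every Lipo-TriTE library lay above every Lipo-BiTE library. In the kappa ratio all groups overlapped. Counts of the J segments (biotype IG_J_gene) were 7, 5 and 4 in PBS, 17, 30 and 11 in Lipo-BiTE and 1337, 354 and 354 in Lipo-TriTE.

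T cell receptor V segments, the counterpart in T cells, also had their lowest mean in PBS and their highest in Lipo-TriTE. Their 90 entries had 30, 48 and 58 counts in PBS, 257, 219 and 113 in Lipo-BiTE and 1838, 845 and 1316 in Lipo-TriTE. Lipo-BiTE was above PBS in them without overlap, as it was not for the immunoglobulin segments. Immunoglobulin V reads per T cell receptor V read were 1.87, 1.23 and 0.914 in PBS, 0.335, 0.402 and 0.372 in Lipo-BiTE and 8.78, 3.73 and 4.21 in Lipo-TriTE. The 3 groups did not overlap in this ratio, with Lipo-BiTE lowest and Lipo-TriTE highest, and no test was made of it.

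B cell markers and antibody constant genes moved with the V segments in Lipo-TriTE, and plasma cell genes did so in part. Of 15 B cell markers, 15 were called higher than in PBS and 14 higher than in Lipo-BiTE (median log2 change 6.32 and 4.89, against 0.0032 and -0.0129 over all tested genes), and 3 were higher in Lipo-BiTE than in PBS, a share not far from the 13.8% of all tested genes. Cd79a, a signalling subunit of the B cell receptor, had a mean of 0.464 ± 0.405, 2.27 ± 1.27 and 123 ± 69.9 CPM in PBS, Lipo-BiTE and Lipo-TriTE (SD, n = 3 each). All 12 antibody constant genes were called higher in Lipo-TriTE than in either other group. In Lipo-BiTE against PBS 2 were, again near that 13.8%, Ighm of IgM (3.23-fold, edgeR adjusted p = 0.000769) and Iglc2. Some genes of the 3 lists, among them Fcer2a, Ighe, Iglc2 and Mzb1, passed the filter only through their Lipo-TriTE counts. They had to differ in Lipo-TriTE, so their calls there are no support for a difference. Of 11 tested plasma cell genes, 8 were higher and 2 lower in Lipo-TriTE than in PBS, against 18.9% and 14.8% of all tested genes. Compared with Lipo-BiTE, 5 were higher and 0 lower, against 4.88% and 5.21%. In Lipo-BiTE against PBS, 4 were higher and 2 lower, against 13.8% and 3.22%. Xbp1 had means of 182, 613 and 415 CPM in PBS, Lipo-BiTE and Lipo-TriTE, and Prdm1 1.64, 15.3 and 15.2 CPM. Mzb1, a chaperone of antibody assembly, had a mean of 34.3 CPM in Lipo-TriTE against 0.568 in PBS. Sdc1, which epithelia also express, was lower in Lipo-TriTE than in PBS (log2 -1.02, edgeR adjusted p = 0.000772).

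Genes of V(D)J joining and of germinal centres differed widely in level. Rag1, Rag2 and Igll1, which act in precursor B cells, had means under 1 CPM in every group, and Vpreb1 was at 0 in Lipo-BiTE and Lipo-TriTE. All 6 tested genes of that list were called higher in Lipo-TriTE than in PBS, where 18.9% of all tested genes were. They include Dntt, the polymerase that adds bases at V(D)J joints (mean 0.705 and 11.2 CPM, 15.8-fold, edgeR adjusted p = 6.3e-05), Vpreb3 (39.7-fold, edgeR adjusted p = 0.00632), and Il7r and Lef1, which T cells also express. Vpreb3 passed the filter only through its Lipo-TriTE counts and so had to differ. In Lipo-BiTE against PBS, 3 of the 6 were higher, Il7r, Lef1 and Erg, against 13.8% of all tested genes. Compared with Lipo-BiTE, 4 were higher in Lipo-TriTE, against 4.88%. Of 7 tested germinal centre genes, 4 were higher and 2 lower in Lipo-TriTE than in PBS, against 18.9% and 14.8% of all tested genes. Nuggc, among the 4, passed the filter in the same way as Vpreb3. In Lipo-BiTE against PBS, 2 were higher, Bcl6 and Fas, and 0 lower.

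Markers of other cells also differed. Of all tested genes, 13.8% were called higher in Lipo-BiTE than in PBS and 18.9% in Lipo-TriTE than in PBS. All 14 T cell markers were called higher in Lipo-BiTE and in Lipo-TriTE than in PBS. Their summed levels were 67 to 88.5, 331 to 664 and 1412 to 2455 CPM in PBS, Lipo-BiTE and Lipo-TriTE. All 9 tested myeloid markers were higher in both than in PBS, at 233 to 383, 1601 to 7846 and 1637 to 4607 CPM. Of 6 tested epithelial markers, 2 were higher and 2 lower in Lipo-TriTE than in PBS, against 18.9% and 14.8% of all tested genes. With only 6 genes tested, these counts are not far from those shares. The epithelial list summed to 901 to 974, 611 to 840.5 and 397 to 676 CPM. Krt14, Upk1b and Upk3a, markers of urothelium and basal epithelium, had means under 1 CPM in every group. The part of these cells in the V segment counts was not tested.

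How reads were assigned limits the values of single segments. Of 154 segments matched to GENCODE M21, 45 shared no 50-base window with another V segment and 11 shared over 50% of theirs. Shared windows made up 38.6% of Ighv11-2 and 34.1% of Igkv3-4, and 0% of Igkv14-126, Igkv14-111, Igkv6-32 and Iglv3. Among matched segments without a count 29 of 38 had a shared window, against 80 of 116 with counts. Gene models also overlap: that of Igkv8-27 overlaps those of Igkv8-24 and Igkv8-19, and that of Ighv8-8 overlaps Ighv8-5. Antibodies mutate their V segments, and reads that differ from the reference may be lost or moved to a relative. How the counting treated such reads was not stated.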

How the data were processed

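RNA-seq of 9 tumour libraries was analysed. The authors deposited raw counts per gene, whole numbers in 1 table of 44806 entries named by C57BL/6NJ gene models, per the file headers. Aligner, counter and strand setting: not given in the sources used here. Per the labels' protocols, mRNA was copied with random primers and amplified by PCR, with no molecular identifiers named. Count columns named untreated were taken as PBS, which is an inference. In all, 3710 unnamed loci were kept in the totals.

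Counts were analysed with edgeR 4.0.16 in R 4.3.3 (filterByExpr, TMM, robust quasi-likelihood, 9 libraries, 1 mean per group, 3 contrasts, Benjamini-Hochberg adjustment over 16596 genes). The procedure was tested on simulated data. DESeq2 1.42.0, other filters and scalings and leaving out each library were alternatives. Detection was set at 3 counts. A group at 0 was bounded with 3 counts over the group, and with 1 to 3 counts the ratio has an exact 95% interval.

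Named were the 6 Ighv and 6 Igkv segments with the largest mean share in Lipo-TriTE, Iglv segments with 3 counts, the leading segments of each library, the 4 called changes per comparison with the largest fitted fold (1 CPM or more on average where higher) and the 3 with most PBS counts. The members and lists were chosen with earlier results of these data known.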

Additional observations from a re-analysis of the deposited data

Results flagged for a closer look

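V-like signal lay outside the IG_V_gene entries. The table holds 18 unnamed assembled loci whose deposited protein match is an immunoglobulin variable region, 8 on the locus chromosomes and 10 on unplaced scaffolds, and 16 of them had a count. They summed to 1, 3 and 6 counts in PBS and 8, 7 and 11 in Lipo-BiTE, and to 2774, 756 and 1530 in Lipo-TriTE 1, 2 and 3, which is 17.2, 24 and 27.6 for every 100 counts of the V segments described above. The PBS libraries served as the control level, and all 3 Lipo-TriTE libraries stood above it. V segment sums, numbers of segments, shares and ranks given above are therefore without these loci unless stated.

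Entries with the biotype IG_V_pseudogene, V segments that cannot encode a chain, numbered 138, of which 34 had a count. They summed to 0, 4 and 7 counts in PBS, 13, 19 and 3 in Lipo-BiTE and 80, 50 and 55 in Lipo-TriTE 1, 2 and 3, above every PBS library. Per 100 V segment counts they were 0.496, 1.59 and 0.994 in Lipo-TriTE, 7.14 to 21.6 in Lipo-BiTE and 0, 6.78 and 13.2 in PBS 1, 2 and 3, so that Lipo-TriTE lay above PBS 1 and below PBS 2 and 3.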

How the results depend on the processing

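Lipo-TriTE against PBS gave 62 segments called higher without a low-count filter and 41 to 56 when a library was left out, and Lipo-TriTE against Lipo-BiTE 21 (without Lipo-BiTE 2) to 45. For Lipo-BiTE against PBS, DESeq2 called 2 higher, the fit without a filter 5 higher and 1 lower, and fits without a library 0 to 2 higher. Replicate numbers did not pair the libraries (correlations of same-numbered deviations from -0.194 to 0.076), and with the replicate block 0 segments were called higher in Lipo-BiTE than in PBS, 39 in Lipo-TriTE than in PBS and 33 in Lipo-TriTE than in Lipo-BiTE.

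Without the leading segment of each library the PBS mean sum was 2.72 CPM. The mean number detected in PBS, Lipo-BiTE and Lipo-TriTE was 7, 10 and 82, and 13.7 and 25.3 (PBS and Lipo-BiTE) with at least 1 count, 1.67, 1 and 61.7 with at least 10 counts and 12.6, 19.97 and 24 in expectation at 42 reads. With the unnamed loci, an alternative chosen after seeing the data, it was 96.7 in Lipo-TriTE. Evenness taken over all 175 entries was 0.437, 0.554 and 0.708, which puts Lipo-TriTE highest instead of lowest. The mean Igkv overlap within Lipo-BiTE was 0.268, and 0.348 by the Morisita-Horn index and 0.208 without the leading segments. Depth limits the 6 PBS and Lipo-BiTE libraries, whose 42 to 88 V reads set every share in them.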
